A study of Mus musculus with 19 samples.

Results

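The values describe the ERV1 subfamilies of mouse retrotransposons, leaving out MMERGLN, in spermatogonia that lack *Pld6* or *Dnmt3l*. With earlier results of these data known, a rule on name and family label was set to pick the members. The family field of the deposited name had to read ERV1, and names that begin with MMERGLN were set aside. This gave 46 subfamilies of the 259 in each library, out of 48 labelled ERV1. Of the 46, 9 are internal parts of a provirus (names ending in -int or _I) and 37 are LTRs. The samples are 19 mRNA-seq libraries of EpCAM-positive spermatogonia, sorted by FACS from testes at postnatal day 7. EpCAM is a surface protein of undifferentiated spermatogonia. In the *Dnmt3l* line there were 2 wild-type, 3 heterozygous and 3 homozygous KO libraries, and in the *Pld6* line 3 wild-type, 3 heterozygous and 5 homozygous KO libraries. Both lines had been backcrossed to C57BL/6J, the labels name no treatment, and each line has wild types of its own. The KO alleles are not described further in the sources used here, and each library is one mouse by the methods of the study. The transcripts of *Pld6* and *Dnmt3l*, and of genes that mark spermatogonia or other testis cells, were not analysed here, because the values used cover retrotransposons. From these values of bulk samples alone, a change in the make-up of the sorted cells and a change in RNA per cell cannot be told apart. The study reports that marker genes of spermatogonia changed little in the mutants, and it takes the cell populations as comparable.

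ERV1 elements are class I endogenous retroviruses, relatives of the gammaretroviruses. An intact copy has an internal part with the *gag*, *pol* and *env* genes between a pair of LTRs. The LTR carries the promoter, so transcription of a provirus starts in the upstream LTR and ends in the downstream LTR, and many copies in the genome are solitary LTRs without an internal part. In mice the class includes the endogenous murine leukaemia viruses (MuLV), the VL30 elements, which have lost the viral protein genes but are packaged into MuLV particles, and MuRRS, the murine retrovirus-related sequences. DNMT3L, a partner of the *de novo* DNA methyltransferases, is needed for DNA methylation of retrotransposons in fetal male germ cells. PLD6, a mitochondrial protein, is needed to make the piRNAs that silence retrotransposons and guide their methylation there.

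The unit was RPM, in which the reads assigned to the consensus sequence of a subfamily are scaled by the mapped total of the library, with LTR and internal part counted separately. RPM was not divided by the length of the consensus sequence, so an RPM is compared here between libraries for one subfamily, and a share of RPM is a share of reads and not of transcripts. The read depth is unknown. Of the 46 members, 19 reached 1 RPM in at least 2 libraries and were tested, against 114 of all 259 subfamilies. They comprise 7 of the 9 internal parts and 12 of the 37 LTRs. By name, all 5 VL30 subfamilies and all 3 of MuLV and RLTR4 reached the minimum, as did 6 of 11 of MuRRS and LTRIS, 3 of 8 of RLTR1, 1 of 2 of MURVY and RLTR48A from the 11 other names. None of the 2 MERV1 and 4 RLTR41 subfamilies did. The 11 control libraries alone brought 17 of the 19 to the minimum, whereas MuRRS4-int and RLTR48A reached it only with KO libraries.

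log2(RPM + 1) was fitted with limma over all 19 libraries, and p-values were adjusted over the 114 tested subfamilies in each comparison with a threshold of 0.05. Because of the added 1, fold changes of subfamilies with low RPM come out too small on this scale. Many subfamilies gave more reads in KO than in control libraries, so the log2 fold change of the median tested subfamily was 0.26 for *Pld6* KO and 0.50 for *Dnmt3l* KO. Each library was therefore also divided by a size factor, the median of its ratios to a geometric mean library over 33 subfamilies. This moved these medians to -0.14 and -0.02. Of the 33 subfamilies 4 are members: MMVL30-int, MuLV-int, RLTR4_MM-int and RLTR6_Mm. All 4 are called in *Dnmt3l* KO below, so they helped to set the factor by which they were divided. A fold change after this rescaling is given below as the rescaled value. One library stood apart: *Pld6* heterozygous replicate 1 had 34 of the 46 members and 159 of the 259 subfamilies listed at 0, and calls of members that change without it are given both ways.

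In *Pld6* KO spermatogonia 2 of the 19 tested members were up-regulated, RLTR1B-int and its LTR RLTR1B, and 0 were lower. In *Dnmt3l* KO spermatogonia 8 were up-regulated and 0 were lower: RLTR1B-int, RLTR1B, MuRRS4-int, RLTR4_MM-int, MuLV-int, MMVL30-int, RLTR6_Mm and LTRIS2. Of all 114 tested subfamilies, 30.7% were higher and 0% lower in *Pld6* KO, and 38.6% were higher and 1.75% lower in *Dnmt3l* KO. The 8 members called in *Dnmt3l* KO, 42.1% of those tested, are thus near the share over all subfamilies. The 2 called in *Pld6* KO, 10.5%, are below that share in this fit, which holds *Pld6* heterozygous replicate 1. Without that library in the fit, 36.8% of members were higher in *Pld6* KO, against 37.7% of all tested subfamilies. With heterozygous libraries in place of wild type the shares were 42.1% and 45.6%, and with all controls pooled 47.4% and 41.2%. No test was made of the share of members against the other subfamilies. At an unadjusted limma p under 0.05 there were 4 members in *Pld6* KO and 8 in *Dnmt3l* KO. The share over all subfamilies was not counted at that limit, so these counts are not read as a result about the members. The median log2 fold change of the 19 members was 0.40 for *Pld6* and 0.52 for *Dnmt3l*, and after rescaling it was -0.08 and 0.07. After rescaling, 3 members stayed past the threshold in *Dnmt3l* KO, namely RLTR1B-int, MuRRS4-int and RLTR1B, against 23.7% of all tested subfamilies higher and 7.89% lower. RLTR1B-int was then the member higher in *Pld6* KO, and LTRIS_Mus was lower there, against 25.4% higher and 14.0% lower of all tested subfamilies.

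**Figure D1:**
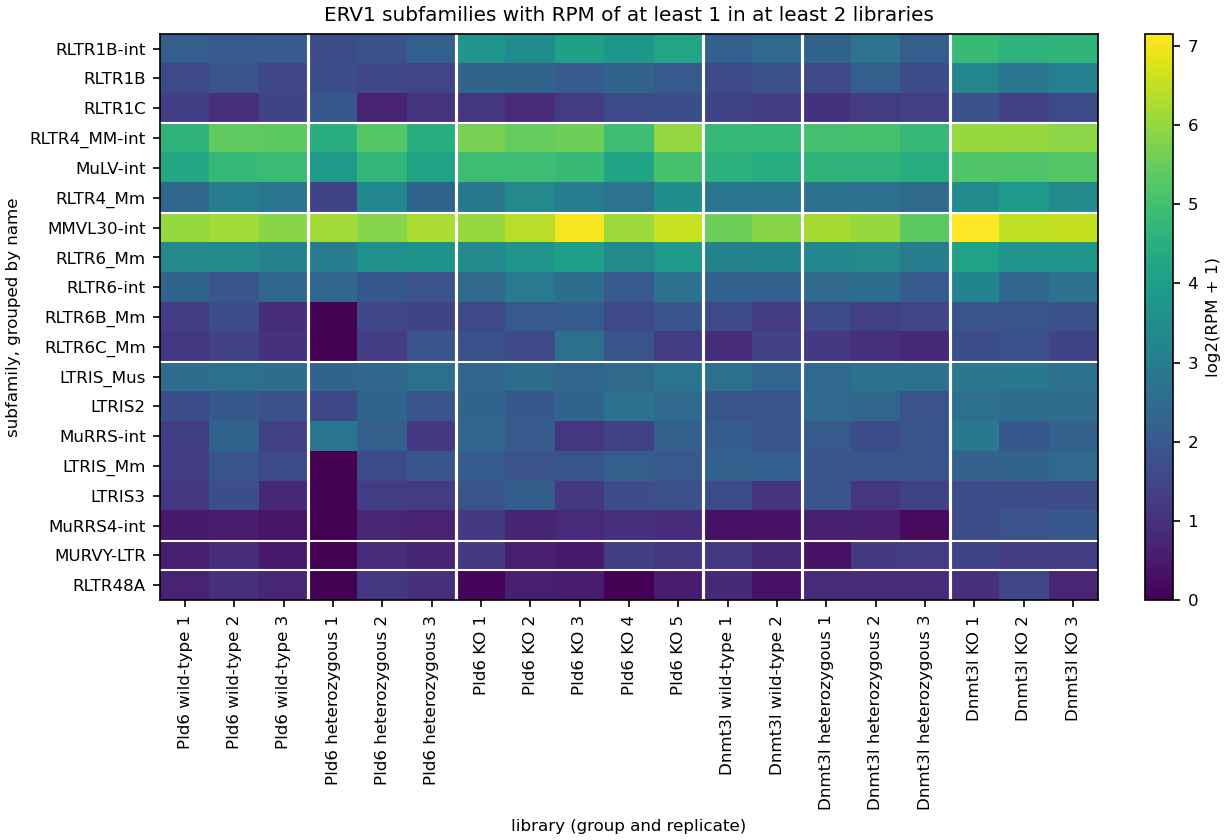
log2(RPM + 1) of the 19 tested ERV1 subfamilies (rows, grouped by name) in the 19 libraries (columns, grouped by genotype). RLTR1B-int is brighter in every KO library of both lines than in any control library, and MuRRS4-int is brightest in the 3 *Dnmt3l* KO libraries. *Pld6* heterozygous replicate 1 is dark for LTRIS_Mm, LTRIS3, RLTR6B_Mm, RLTR6C_Mm, MURVY-LTR, MuRRS4-int and RLTR48A, which it lists at 0.

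RLTR1B-int, the internal part of an ERV1 provirus whose LTR is listed as RLTR1B, had the largest log2 fold change among the tested members in both mutants. It was at 3.46, 3.09 and 3.16 RPM in the 3 *Pld6* wild-type libraries and at 12.3, 10.2, 15.9, 12.7 and 17.7 RPM in the 5 *Pld6* KO libraries. For *Dnmt3l* it was at 3.54 and 4.42 RPM in wild type and at 27.2, 23.7 and 24.8 RPM in KO. The heterozygous libraries were between 2.18 and 3.65 RPM for *Pld6* and between 3.48 and 5.59 RPM for *Dnmt3l*. All 8 KO libraries were thus above all 11 control libraries, and the 3 *Dnmt3l* KO libraries were above the 5 *Pld6* KO libraries.

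The mean RPM of RLTR1B-int rose 4.25-fold in *Pld6* KO, from 3.24 ± 0.197 (SD, n = 3) to 13.8 ± 3.02 (SD, n = 5). The log2 fold change was 1.78 with a standard error of 0.19, and the limma adjusted p was 2.85e-07. The exact permutation p was 0.0179, the smallest that the 56 splits of 5 against 3 libraries allow. In *Dnmt3l* KO the mean rose 6.35-fold, from 3.98 ± 0.622 (SD, n = 2) to 25.3 ± 1.77 (SD, n = 3). There the log2 fold change was 2.40 with a standard error of 0.24 and a limma adjusted p of 8.73e-08, and 3 against 2 libraries allow no exact test that could pass the threshold. The rescaled values were 1.33 (limma adjusted p = 1.31e-05) and 1.80 (limma adjusted p = 4.76e-06). RLTR1B-int stayed past the threshold in both mutants when any single library of the groups compared was left out.

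The LTR of the pair, RLTR1B, had smaller fold changes than its internal part. It was at 2.00, 2.65 and 1.89 RPM in *Pld6* wild type and at 3.85, 3.98, 3.14, 3.81 and 3.08 RPM in *Pld6* KO, so that all KO libraries were above all wild-type libraries by a small margin. In the *Dnmt3l* line it was at 2.13 and 2.44 RPM in wild type and at 8.53, 6.03 and 7.50 RPM in KO, with a wide gap between the groups. In *Pld6* KO the mean was 1.64 times that in wild type, the log2 fold change was 0.53 with a standard error of 0.18, and the limma adjusted p was 0.0284. The call was lost without wild-type replicate 1 (log2 fold change 0.49, limma adjusted p = 0.111), wild-type replicate 3 (0.46, limma adjusted p = 0.117) or KO replicate 1 (0.50, limma adjusted p = 0.0610), with fold changes close to that of all libraries. The rescaled value was 0.15 (limma adjusted p = 0.556). In *Dnmt3l* KO the mean was 3.22 times that in wild type, the log2 fold change was 1.34 with a standard error of 0.22, and the limma adjusted p was 6.23e-05, with a rescaled value of 0.79 (limma adjusted p = 0.0116).

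Within a library, the RPM of RLTR1B-int was 1.17 to 1.73 times that of RLTR1B in *Pld6* wild type and 2.57 to 5.76 times in *Pld6* KO. For *Dnmt3l* this ratio was 1.66 and 1.81 in wild type and ranged from 3.19 to 3.94 in KO. The ratio does not depend on the scaling of the library, and neither KO group overlapped its wild type. The third tested subfamily with this name stem, RLTR1C, is an LTR and passed no test. It ranged from 0.97 to 1.70 RPM in *Pld6* wild type and from 0.80 to 2.26 RPM in *Pld6* KO, and from 1.38 to 1.76 and from 1.62 to 2.42 RPM in *Dnmt3l* wild type and KO, with overlapping groups in both lines. The 5 RLTR1 subfamilies that did not reach the minimum, RLTR1, RLTR1A2_MM, RLTR1D, RLTR1D2_MM and RLTR1E_MM, were at 0.95 RPM or less in every library.

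MMERGLN-int, which is also labelled ERV1, gave far more reads than RLTR1B-int in KO libraries, and a read that fits both consensus sequences could have been assigned to either. MMERGLN-int was at 4.08 to 7.14 RPM in *Pld6* wild type and at 140.59 to 297.36 RPM in *Pld6* KO, and at 3.39 and 4.45 RPM in *Dnmt3l* wild type and 217.19 to 450.76 RPM in *Dnmt3l* KO. For each 100 RPM of MMERGLN-int there were 3.43 to 9.04 RPM of RLTR1B-int in *Pld6* KO and 5.51 to 10.9 RPM in *Dnmt3l* KO. Among the *Pld6* KO libraries, replicate 2 had the most MMERGLN-int and the lowest RLTR1B-int, and among the *Dnmt3l* KO libraries, replicate 2 had the lowest value of both. The part of shared reads in the rise of RLTR1B-int was not tested.

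**Figure D2:**
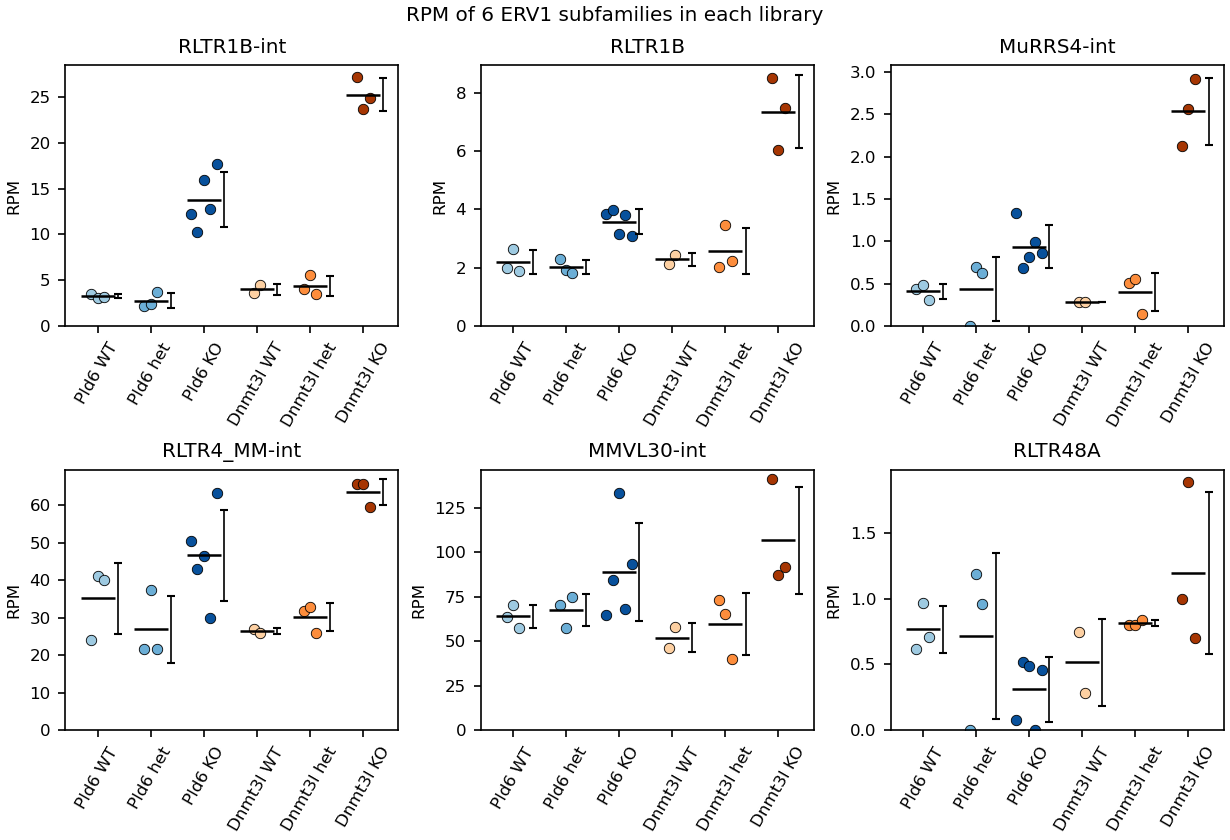
RPM (linear axis from 0) of 6 ERV1 subfamilies in each library, by genotype (WT, wild type; het, heterozygous). Points are libraries, horizontal lines are group means and the bars beside them are ± 1 SD. The KO libraries of both lines lie above all controls for RLTR1B-int, those of *Dnmt3l* KO lie above all controls for RLTR1B, MuRRS4-int, RLTR4_MM-int and MMVL30-int, and for RLTR48A the *Pld6* KO libraries lie below the *Pld6* wild-type libraries.

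MuRRS4-int, an internal part of the murine retrovirus-related sequences, was low in control libraries and had the largest ratio of means of any tested member in *Dnmt3l* KO. It was listed at 0.28 RPM in both *Dnmt3l* wild-type libraries, at 0.51, 0.55 and 0.14 RPM in the heterozygous libraries and at 2.13, 2.57 and 2.92 RPM in KO. In the *Pld6* line it was at 0.44, 0.48 and 0.31 RPM in wild type, at 0, 0.69 and 0.62 RPM in heterozygous libraries and at 1.34, 0.68, 0.81, 0.99 and 0.86 RPM in KO. All *Dnmt3l* KO libraries were above every other library of the series. The *Pld6* KO libraries were all above their wild types but not all above the heterozygous libraries.

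MuRRS4-int reached 1 RPM in 4 KO libraries, the 3 of *Dnmt3l* and *Pld6* KO replicate 1, and in none of the controls, where 0.69 RPM was the highest value. It was thus tested only because it was high in KO libraries, and its calls depend on that selection. In *Dnmt3l* KO the mean of MuRRS4-int was 9.07 times that in wild type. The log2 fold change was 1.46 with a standard error of 0.22, the limma adjusted p was 2.40e-05 and the rescaled value was 1.11 (limma adjusted p = 0.00133). Leaving out any one library of the groups compared kept it past the threshold, and in a fit of all 259 subfamilies with no minimum the limma adjusted p of MuRRS4-int was 9.31e-05. In *Pld6* KO the mean was 2.28 times that in wild type, with a log2 fold change of 0.45, a standard error of 0.18 and a limma adjusted p of 0.0665, which does not pass. The exact permutation p was 0.0179, unadjusted and the smallest possible, and the limma adjusted p was 0.0151 when *Pld6* heterozygous replicate 1 was not in the fit and 0.0489 without *Pld6* KO replicate 2. The rescaled value in *Pld6* KO was 0.26 (limma adjusted p = 0.313).

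Of the other 5 tested MuRRS and LTRIS subfamilies, LTRIS2 was called in *Dnmt3l* KO and none in *Pld6* KO. MuRRS-int, the other internal part, was at 1.51 to 3.96 RPM in *Pld6* wild type and 1.19 to 4.10 RPM in *Pld6* KO, and at 2.76 and 3.20 RPM in *Dnmt3l* wild type and 2.89 to 6.46 RPM in *Dnmt3l* KO, with overlap in both lines. The LTRs carry the promoters of these elements. LTRIS2 was at 2.80 and 2.62 RPM in *Dnmt3l* wild type and at 5.17, 4.74 and 4.89 RPM in KO, a log2 fold change of 0.68 with a standard error of 0.26 and a limma adjusted p of 0.0445. The groups of LTRIS2 did not overlap, but leaving out any one of the 5 libraries ended the call (limma adjusted p from 0.0715 without KO replicate 2 to 0.178 without wild-type replicate 2) at log2 fold changes of 0.64 to 0.71, and the rescaled value was 0.15 (limma adjusted p = 0.801). The *Dnmt3l* heterozygous libraries were at 4.44, 4.14 and 2.53 RPM of LTRIS2. With heterozygous or pooled controls in place of wild type, LTRIS2 was not called in *Dnmt3l* KO, whereas RLTR4_Mm was. In *Pld6* KO the log2 fold change of LTRIS2 was 0.51 with a limma adjusted p of 0.0671, and 0.0289 without *Pld6* KO replicate 2.

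LTRIS_Mus stayed between 3.89 and 6.31 RPM over all 19 libraries. It was at 4.88, 5.07 and 4.90 RPM in *Pld6* wild type and at 4.02, 4.72, 4.15, 4.50 and 5.70 RPM in *Pld6* KO, where 4 of the 5 libraries lay below the wild-type range. Its log2 fold change there was -0.09 (standard error 0.16, limma adjusted p = 0.709), and the rescaled value was -0.52 (limma adjusted p = 0.0222). The call of LTRIS_Mus as lower thus belongs to the rescaled values alone. LTRIS_Mm had log2 fold changes of 0.40 for *Pld6* and 0.14 for *Dnmt3l*, and the sixth subfamily of this name group, LTRIS3, which falls outside the rule for naming members and is added for completeness, had 0.49 and 0.33. Neither passed in the fit of all libraries (limma adjusted p from 0.240 to 0.757), and LTRIS_Mm passed in *Pld6* KO when *Pld6* heterozygous replicate 1 was not in the fit (limma adjusted p = 0.0437).

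Of the 3 murine leukaemia virus subfamilies, both internal parts were up-regulated in *Dnmt3l* KO, and none passed the threshold in *Pld6* KO. RLTR4_MM-int, an internal part, was at 26.9 and 25.9 RPM in *Dnmt3l* wild type, at 31.7, 32.9 and 26.0 RPM in heterozygous libraries and at 65.6, 65.6 and 59.6 RPM in KO. In the *Pld6* line it was at 24.1, 41.2 and 40.1 RPM in wild type, at 21.7, 37.2 and 21.7 RPM in heterozygous libraries and at 50.5, 42.9, 46.6, 29.8 and 63.2 RPM in KO. The *Dnmt3l* groups were far apart, whereas *Pld6* KO replicate 4 lay within the wild-type range. In *Dnmt3l* KO the mean was 2.41 times that in wild type, the log2 fold change was 1.24 with a standard error of 0.28 and a limma adjusted p of 0.00154, and the call held with each of the 5 libraries left out in turn. The rescaled value was 0.58 (limma adjusted p = 0.0589). In *Pld6* KO the log2 fold change was 0.40 with a standard error of 0.23 and a limma adjusted p of 0.211.

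MuLV-int, a second internal part of these viruses, was at 22.8 and 20.6 RPM in *Dnmt3l* wild type and at 35.7, 35.6 and 37.7 RPM in KO. The groups did not overlap and the heterozygous libraries, at 20.8 to 24.4 RPM, were close to wild type. The log2 fold change was 0.72 with a standard error of 0.26 and a limma adjusted p of 0.0344. The call was lost without any one of the 5 libraries (limma adjusted p from 0.0612 without KO replicate 2 to 0.177 without wild-type replicate 2), at log2 fold changes of 0.65 to 0.79, and after rescaling (0.08, limma adjusted p = 0.919). In *Pld6* KO, MuLV-int ranged from 17.1 to 32.6 RPM against 18.9 to 28.3 RPM in wild type, a log2 fold change of 0.14 (limma adjusted p = 0.684). RLTR4_Mm, the LTR of the group, had log2 fold changes of 0.36 in *Pld6* KO (limma adjusted p = 0.458) and 0.77 in *Dnmt3l* KO (limma adjusted p = 0.116), and its *Dnmt3l* KO libraries, at 9.57 to 13.6 RPM, were all above its wild types at 5.87 and 6.01 RPM.

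The MuLV and RLTR4 subfamilies also varied together among control libraries of the *Pld6* line. Wild-type replicates 2 and 3 and heterozygous replicate 2 were the 3 highest of the 6 control libraries for RLTR4_MM-int (37.2 to 41.2 RPM), for MuLV-int (25.7 to 28.3 RPM) and for RLTR4_Mm (6.02 to 9.19 RPM). The other 3 control libraries were at 21.7 to 24.1, 13.3 to 18.9 and 1.78 to 4.35 RPM. The summed RPM of the 3 subfamilies was 47.3 to 74.8 in *Pld6* wild type and 52.5 to 106 in *Pld6* KO, where replicate 4 was the lowest and replicate 5 the highest. Since the consensus sequences represent the same viruses, reads may be shared among them, and their values are not independent.

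MMVL30-int, the internal part of VL30, gave the most reads of any member in each of the 19 libraries. It was at 46.2 and 57.8 RPM in *Dnmt3l* wild type, at 73.2, 65.2 and 39.9 RPM in heterozygous libraries and at 141, 87.1 and 91.4 RPM in KO. In the *Pld6* line it was at 63.8, 70.4 and 57.5 RPM in wild type, at 70.5, 57.4 and 74.9 RPM in heterozygous libraries and at 64.7, 84.5, 133, 68.1 and 93.1 RPM in KO. All *Dnmt3l* KO libraries were above all controls of that line, while 2 of the 5 *Pld6* KO libraries, replicates 1 and 4, lay within the wild-type range.

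For MMVL30-int the log2 fold change against *Dnmt3l* wild type was 1.00 with a standard error of 0.30 and a limma adjusted p of 0.0119, with a mean 2.05 times that in wild type. Without KO replicate 1, the highest library, the log2 fold change was 0.78 (limma adjusted p = 0.0592), without wild-type replicate 1 it was 0.84 (limma adjusted p = 0.121), and the rescaled value was 0.34 (limma adjusted p = 0.510). In *Pld6* KO the log2 fold change was 0.42 with a standard error of 0.24 and a limma adjusted p of 0.204. For RLTR6_Mm, a VL30 LTR, the *Dnmt3l* KO gave a log2 fold change of 0.63 (standard error 0.23, limma adjusted p = 0.0344), from 8.27 and 8.42 RPM to 16.3, 12.3 and 12.3 RPM. That call was lost without KO replicate 1 (0.51, limma adjusted p = 0.129), without wild-type replicate 1 (0.62, limma adjusted p = 0.141) or 2 (0.65, limma adjusted p = 0.120), and after rescaling (0.02, limma adjusted p = 0.959). In *Pld6* KO all libraries of RLTR6_Mm, at 9.62 to 14.8 RPM, were above the wild types at 7.90 to 9.46 RPM, with a log2 fold change of 0.38 and a limma adjusted p of 0.144.

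The other VL30 subfamilies, RLTR6-int, RLTR6B_Mm and RLTR6C_Mm, did not pass the test in either mutant in the fit of all libraries, with log2 fold changes of 0.34 to 0.63 in *Pld6* KO and 0.38 to 0.52 in *Dnmt3l* KO. Without *Pld6* heterozygous replicate 1 in the fit, RLTR6B_Mm (limma adjusted p = 0.0255) and RLTR6C_Mm (limma adjusted p = 0.0443) passed in *Pld6* KO. RLTR6C_Mm was at 2.34, 2.01, 5.22, 2.62 and 1.48 RPM in *Pld6* KO against 1.24, 1.64 and 1.02 RPM in wild type, and replicate 3, which was also the highest for MMVL30-int and RLTR6_Mm, stood above the others. Within a library, MMVL30-int was 6.88 to 7.44 times RLTR6_Mm in *Pld6* wild type and 6.73 to 9.03 times in *Pld6* KO. In the *Dnmt3l* line the ratio was 5.59 and 6.86 in wild type and 7.08 to 8.70 in KO. These ratios overlapped between the groups of the *Pld6* line and, for *Dnmt3l*, between KO and heterozygous libraries, which were at 5.67 to 7.94.

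RLTR48A, an LTR listed with no internal partner among the members, was the member with the most negative log2 fold change in *Pld6* KO. It was at 0.62, 0.97 and 0.71 RPM in wild type and at 0.08, 0.52, 0.49, 0 and 0.46 RPM in KO, so that all KO libraries were below all wild-type libraries. The log2 fold change was -0.45 with a standard error of 0.24 and a limma adjusted p of 0.178, the exact permutation p was 0.0714 unadjusted, and the rescaled value was -0.62 (limma adjusted p = 0.0542). In *Dnmt3l* KO it was at 1.00, 1.89 and 0.70 RPM against 0.75 and 0.28 RPM, which gave a log2 fold change of 0.52 with a limma adjusted p of 0.181. RLTR48A reached 1 RPM in 1 control library and in 2 KO libraries, both of *Dnmt3l*, so it was tested only because of *Dnmt3l* KO libraries. MURVY-LTR, the LTR of a Y-linked retrovirus family and likewise outside the rule for naming, passed no test, with log2 fold changes of 0.29 for *Pld6* and 0.35 for *Dnmt3l*.

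**Figure D3:**
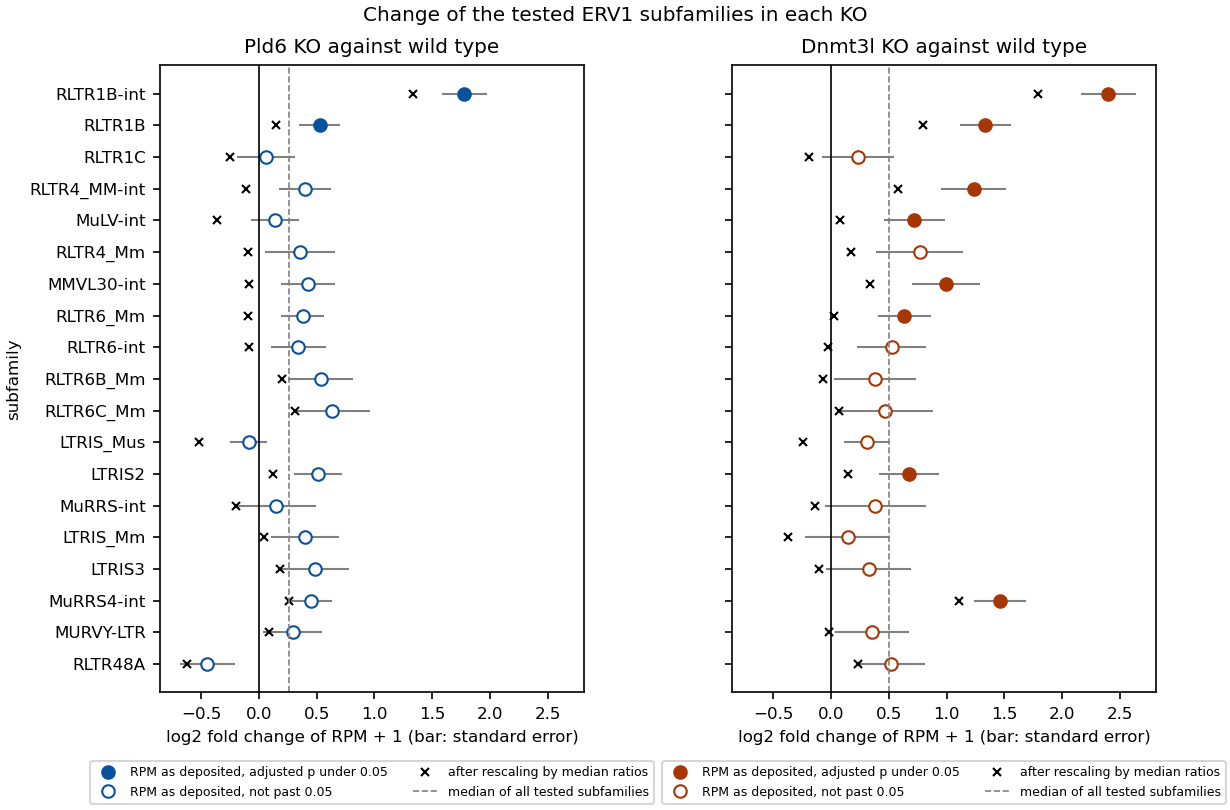
log2 fold change of RPM + 1 (x axis) of the 19 tested ERV1 subfamilies in *Pld6* KO and *Dnmt3l* KO against the wild type of the line. Circles are values from the deposited RPM with bars of ± 1 standard error, filled where the adjusted p is under 0.05 (2 in *Pld6* KO, 8 in *Dnmt3l* KO), crosses are rescaled values and the dashed line is the median of all 114 tested subfamilies. RLTR1B-int lies far to the right in both panels, also after rescaling, and MuRRS4-int in the *Dnmt3l* panel.

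Counted without a test, 16 of the 19 members had all *Dnmt3l* KO libraries above both wild types, against 67.5% of all tested subfamilies, and 0 had them all below, against 7.89%. The 3 members with overlap were MuRRS-int, RLTR1C and RLTR48A. In *Pld6* KO, 4 members had all KO libraries above all wild types, against 35.1%: RLTR1B-int, RLTR1B, MuRRS4-int and RLTR6_Mm. RLTR48A was the 1 with all KO libraries below, against 0.877%, which is this member itself. Internal parts and LTRs of one provirus share their transcripts, so these counts are not independent.

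The number of members called in *Pld6* KO depends on *Pld6* heterozygous replicate 1, although that library is in neither group compared, because all groups share one estimate of the spread. When it was not in the fit, 7 members were higher in *Pld6* KO, against 37.7% of all tested subfamilies: RLTR1B-int, RLTR6C_Mm, RLTR6B_Mm, RLTR1B, LTRIS2, MuRRS4-int and LTRIS_Mm. The log2 fold changes were the same as in the fit of all libraries. With heterozygous libraries or with all controls of the line pooled in place of wild type, 8 and 9 members were higher in *Pld6* KO, against 45.6% and 41.2%. Both of these control sets contain *Pld6* heterozygous replicate 1. LTRIS3, LTRIS_Mm, RLTR6B_Mm and MuRRS4-int, called with either set, are listed at 0 in that library. In *Dnmt3l* KO, 9 members were higher without that library, the 8 above and RLTR4_Mm (limma adjusted p = 0.0357), against 42.1% of all tested subfamilies.

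The mutants were also compared with each other, as the log2 fold change in *Dnmt3l* KO minus that in *Pld6* KO, each against its own wild type. MuRRS4-int was the 1 member of 19 past the threshold, with a higher response in *Dnmt3l* KO, against 7.89% of all tested subfamilies with a higher and 4.39% with a lower response. The difference was 1.01 on the log2 scale with a standard error of 0.29, a 95% confidence interval of 0.41 to 1.62 and a limma adjusted p of 0.0282. MuRRS4-int was among the tested members only through KO libraries, and with no minimum on RPM the limma adjusted p was 0.0422. After rescaling the difference was 0.85 (limma adjusted p = 0.107), and leaving out one library ended the call for 6 of the 13 libraries, while the difference stayed between 0.93 and 1.10 over all 13. The limma adjusted p was then 0.127 and 0.0900 without *Dnmt3l* wild-type replicates 1 and 2, 0.0598 and 0.0776 without *Dnmt3l* KO replicates 2 and 3, and 0.0544 and 0.0774 without *Pld6* wild-type replicates 1 and 2. Without *Pld6* heterozygous replicate 1 in the fit it was 0.00371.

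The response of RLTR1B-int was not shown to differ between the mutants, with a difference of 0.62 (95% confidence interval -0.03 to 1.27, limma adjusted p = 0.197). For RLTR1B the difference was 0.81 (95% confidence interval 0.21 to 1.41, limma adjusted p = 0.0769), for RLTR4_MM-int 0.84 (95% confidence interval 0.08 to 1.60, limma adjusted p = 0.151) and for RLTR48A 0.97 (95% confidence interval 0.16 to 1.77, limma adjusted p = 0.114). Intervals are for a single member and not adjusted for the number of subfamilies. RLTR4_MM-int and MMVL30-int, called in *Dnmt3l* KO and not in *Pld6* KO, were thus not shown to respond differently (MMVL30-int 0.57, limma adjusted p = 0.376). Without *Pld6* heterozygous replicate 1 in the fit, RLTR1B (limma adjusted p = 0.0280) and RLTR48A (limma adjusted p = 0.0255) passed as well, and 3 members were called, against 13.2% of all tested subfamilies. RLTR48A reached the minimum only with *Dnmt3l* KO libraries, so its higher value in *Dnmt3l* KO depends on that selection. With pooled controls 2 members were called, against 12.3%.

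Heterozygous libraries of neither line differed from wild type at the threshold. In limma 0 members were called, against 0% of all tested subfamilies in each comparison, and 0 members had an unadjusted p under 0.05. The log2 fold changes of the 19 members ranged from -0.44 to 0.37 in *Pld6* heterozygous and from -0.29 to 0.32 in *Dnmt3l* heterozygous spermatogonia. The value of -0.44 was that of LTRIS_Mm, which *Pld6* heterozygous replicate 1 lists at 0. With single libraries left out, the value of LTRIS_Mm ranged from -0.80 to 0.13. Without *Pld6* heterozygous replicate 1, 0 members were called and 0 had an unadjusted p under 0.05. In the *Pld6* line, leaving out heterozygous replicate 2 gave 3 members at an unadjusted p under 0.05 and leaving out wild-type replicate 1 gave 2, all lower in heterozygous libraries. The share over all subfamilies was not counted at that limit. The wild types of the lines, compared with each other, likewise gave 0 members past the threshold and 0 at an unadjusted p under 0.05, with differences from -0.36 to 0.58 and 0.877% of all tested subfamilies called.

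Taken as a sum, the 46 members made up 149 to 191 RPM in *Pld6* wild type and 179 to 282 RPM in *Pld6* KO, 1.38 times the wild-type mean. In the *Dnmt3l* line the sum was 148 and 151 RPM in wild type and 285 to 354 RPM in KO, 2.06 times the wild-type mean. The groups of the *Pld6* line overlapped and those of the *Dnmt3l* line did not. The sum was set mainly by a few members, since MMVL30-int accounted for 38.8% of the gain in *Pld6* KO and 34.5% of that in *Dnmt3l* KO, RLTR4_MM-int for 17.9% and 23.5%, and RLTR1B-int for 16.4% and 13.5%. The share of RLTR4_MM-int in the *Pld6* gain was 11.0% without *Pld6* wild-type replicate 1, where this member was low. After rescaling, the log2 ratio of the mean sums was -0.06 in *Pld6* KO and 0.37 in *Dnmt3l* KO.

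The share of the members among all ERV1 reads was lower in both mutants, where MMERGLN held the rest. The members held 94.6% to 97.7% of the summed ERV1 RPM in the 11 control libraries, 41.4% to 55.1% in *Pld6* KO and 37.1% to 54.8% in *Dnmt3l* KO. Of the RPM of all 259 subfamilies the members held 5.96% to 7.76% in *Pld6* wild type and 2.49% to 3.73% in *Pld6* KO. For *Dnmt3l* they held 3.59% and 4.48% in wild type and 1.95% to 2.79% in KO. These shares do not depend on the scaling of a library, and for both denominators the KO groups lay below their wild types.

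**Figure D4:**
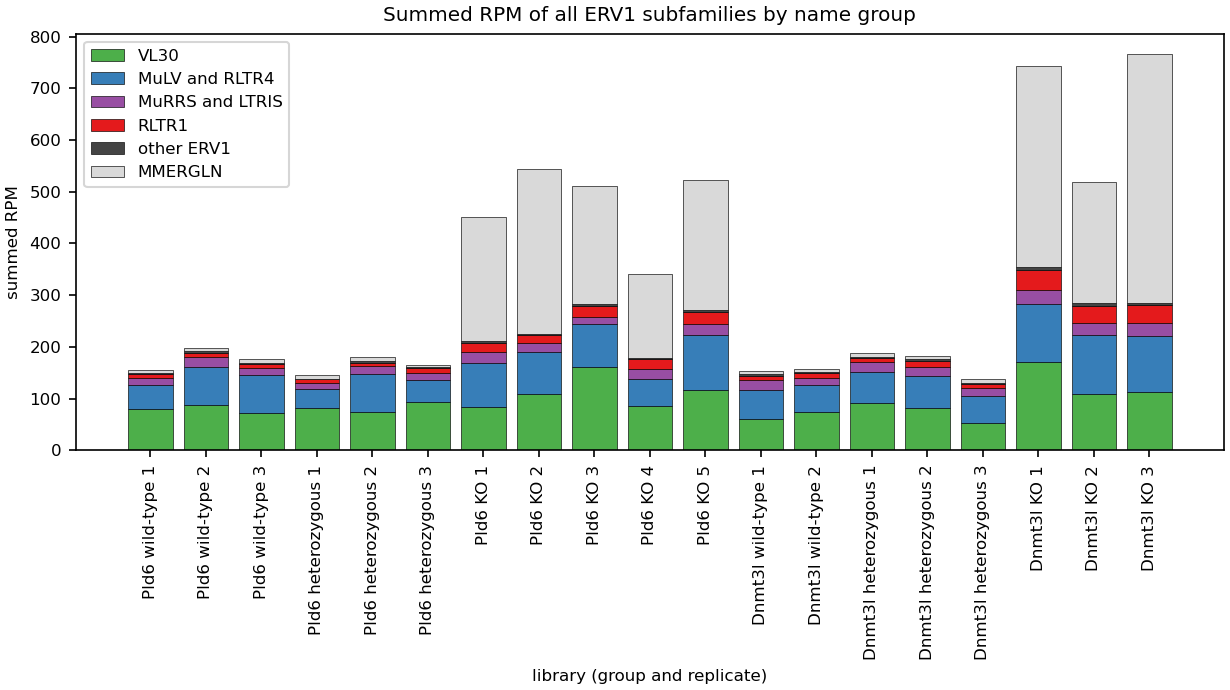
Summed RPM (y axis, linear from 0) of all 48 ERV1 subfamilies in each library, stacked by name group. The coloured parts are the 46 members and the light grey part is MMERGLN, which is a thin cap in the 11 control libraries and makes up 44.9% to 62.9% of the bar in the 8 KO libraries.

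The 27 members under the minimum gave little signal. Together they summed to between 0 and 5.04 RPM in a library, at most 2.95% of the RPM of the members. RLTR24B_MM and RLTR30C_MM were listed at 0 in every library, and reads of such a subfamily could have gone uncounted. LTRIS4B reached 1.27 RPM in *Dnmt3l* KO replicate 1 and was the 1 subfamily of the 27 to pass 1 RPM in any library, while the others stayed at 0.95 RPM or less. The sum of the 27 was 4.15 to 5.04 RPM in *Dnmt3l* KO against 2.66 and 4.36 RPM in wild type, and 2.00 to 3.63 RPM in *Pld6* KO against 2.15 to 3.87 RPM in wild type, with overlap in both lines. In a fit of all 259 subfamilies with no minimum, MERV1_LTR, the LTR of MERV1, was called in *Dnmt3l* KO (limma adjusted p = 7.35e-06), where it was listed at 0.47, 0.40 and 0.35 RPM against 0.06 and 0 RPM in wild type. It was at 0.13 RPM or less in each of the other 16 libraries. RLTR47_MM in *Dnmt3l* KO (0.07, 0.08 and 0.14 RPM against 0 in both wild types) and LTRIS6 in *Pld6* KO (0.31, 0.31, 0.14, 0.03 and 0.27 RPM against 0 in all 3 wild types) were called in that fit too. However, RLTR47_MM was at 0.09 and 0.05 RPM in *Pld6* wild-type replicates 1 and 2. LTRIS6 was at 0.11 RPM in *Pld6* heterozygous replicate 3 and at 0.18 RPM in *Dnmt3l* KO replicate 1. The share of all 259 subfamilies called in that fit was not counted. None of these values exceeds 0.47 RPM, and no fold change is given for them.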

How the data were processed

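Spermatogonia from mice at postnatal day 7 were sorted for EpCAM, and directional poly(A) mRNA libraries were sequenced as single-end reads of 50 bp. With hisat2, the authors aligned the reads to retrotransposon consensus sequences, and they deposited an RPM value for each of 259 subfamilies per library. The submitters' processing notes also name Trim Galore and mm10. How hisat2 was set, how reads with several matching consensus sequences were handled and which reads made up the total are not given in the sources used here. Low RPM values lay on multiples of one step for 62.6% to 92.2% of values per library, so whole reads were not recovered, depth is unknown and no count model or counting interval was used. Groups came from the sample labels. For *Dnmt3l*, the labels give 2 wild-type and 3 heterozygous mice, where the methods section of the study has 3 and 2.

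Members of ERV1 and all name groups were chosen with earlier results of these data known. log2(RPM + 1) of the 114 subfamilies with at least 1 RPM in at least 2 libraries was modelled in limma 3.58.1 under R 4.3.3 (eBayes with a mean-variance trend, 6 groups, no covariates). Tests were two-sided, with Benjamini-Hochberg adjustment over the 114 subfamilies of a comparison. For single members of the *Pld6* line, exact permutation tests compared mean log2(RPM + 1) and were not adjusted. The model was also run on simulated data, set well above the low RPM of most members and with larger changes than most had. That run therefore does not cover low values or small changes. Members named are those past the threshold in any comparison, the 5 with the highest mean RPM, the 3 largest and 3 smallest log2 fold changes in each KO and their partners by name. LTRIS3, MURVY-LTR and members under the minimum were added after their values were seen. Alternatives covered the pseudocount (0.1 and 0.5), the minimum (none, or a mean of at least 5 RPM), median-ratio rescaling (33 subfamilies), which libraries entered the fit, limma settings, heterozygous or pooled controls, a replicate block, each library left out in turn and, chosen after seeing the data, *Pld6* heterozygous replicate 1 not in the fit. Tables used Python 3.11.15, numpy 2.4.6, pandas 2.3.3 and matplotlib 3.10.9. No consensus sequence was used here, so none is shown.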

Additional observations from a re-analysis of the deposited data

Results flagged for a closer look

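MuRRS4-int, the internal part of a murine retrovirus-related sequence, was the 1 member whose response differed between the mutants by a test of the difference itself. The log2 fold change in *Dnmt3l* KO minus that in *Pld6* KO was 1.01 (standard error 0.29, limma adjusted p = 0.0282). MuRRS4-int reached 1 RPM only in 4 KO libraries, 3 of *Dnmt3l* and 1 of *Pld6*, so it was among the tested members because it was high there. The difference passed the threshold under 7 of 11 alternatives of the processing and with 7 of 13 libraries left out in turn, where it stayed between 0.93 and 1.10 with a highest limma adjusted p of 0.127. In the 5 *Pld6* KO libraries, the 1 group large enough to test for an outlying library, none of the 19 tested members nor their summed RPM had a library beyond the limit. The nearest to it was MuLV-int in replicate 4, at 17.1 RPM, where the gap to the next library was 0.708 of the range against a limit of 0.710.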

How the results depend on the processing

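Unknown depth, an unknown RPM total, shared reads and cell make-up limit every value. Over 17 named members and 3 comparisons, 1021 values under alternatives were computed, of which 916 kept direction and side of the threshold, 43 lost and 30 gained a call, and 32 turned direction. Causes were not tested unless stated. Counts of members in this section have no share over all subfamilies beside them, other than the shares given above, and are not read as results about the members. Where leaving out a library leaves 1 in a group, that library is assumed to vary like the other groups.

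The number of members higher in *Pld6* KO, 2, was 1 with a mean of at least 5 RPM (6 members tested), 1 after rescaling, 8 with heterozygous controls, 9 with pooled controls, 7 without *Pld6* heterozygous replicate 1 in the fit and 1 to 4 with a library left out. Both the heterozygous and the pooled controls include *Pld6* heterozygous replicate 1. The number lower in *Pld6* KO, 0, was 1 after rescaling. In *Dnmt3l* KO the 8 higher became 5 with a mean of at least 5 RPM, 3 after rescaling and 4 to 6 with a library left out. For the difference between the mutants the 1 higher became 0 with a pseudocount of 0.1 or 0.5, with a mean of at least 5 RPM and after rescaling, 4 with no minimum, 2 with only the groups compared, 2 with no mean-variance trend, 2 with pooled controls, 3 without *Pld6* heterozygous replicate 1 in the fit and 0 to 1 with a library left out.

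Replicate numbers were not used to pair the libraries in the main fit. A correlation of deviations over 0.1 was found for 5 of 7 same-number pairs of the *Dnmt3l* line and 4 of 9 of the *Pld6* line. The mean correlation was 0.21 for same-number and -0.10 for other pairs of the *Dnmt3l* line, and 0.04 and -0.01 in the *Pld6* line. What a shared number stands for was not tested. With the number as a block, 1 member was higher in *Pld6* KO and 7 in *Dnmt3l* KO, 0 differed between the mutants, and RLTR1C in *Pld6* KO turned to -0.077.

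After rescaling, log2 fold changes in *Pld6* KO turned to -0.090 for MMVL30-int, -0.36 for MuLV-int, -0.20 for MuRRS-int, -0.25 for RLTR1C, -0.094 for RLTR4_Mm, -0.11 for RLTR4_MM-int, -0.084 for RLTR6-int and -0.097 for RLTR6_Mm. In *Dnmt3l* KO they turned to -0.38 for LTRIS_Mm, -0.24 for LTRIS_Mus, -0.14 for MuRRS-int, -0.19 for RLTR1C, -0.068 for RLTR6B_Mm and -0.026 for RLTR6-int. The log2 ratio of the summed RPM was -0.062 in *Pld6* KO and 0.37 in *Dnmt3l* KO.

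With heterozygous controls in *Pld6* KO, LTRIS_Mus turned to 0.041 and MuRRS-int to -0.22, and with pooled controls MuRRS-int was at -0.039. With heterozygous controls the difference between the mutants turned to -0.079 for LTRIS2 and -0.097 for RLTR6-int. With a library left out, values in *Pld6* KO ranged from -0.033 to 0.29 for MuLV-int, from -0.030 to 0.46 for MuRRS-int and from -0.071 to 0.17 for RLTR1C. The difference ranged from -0.078 to 0.45 for MuRRS-int, from -0.37 to 0.045 for RLTR6B_Mm, from -0.40 to 0.080 for RLTR6C_Mm and from -0.057 to 0.38 for RLTR6-int.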
